A study of Mus musculus with 12 samples.

Results

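The RNA levels of 34 genes of the lysosome and of autophagy were followed in mouse basal forebrain and cortex. The genes were chosen by name from the 37306 gene names on the array, with earlier results of these data known. All 34 were measured, and the probe used for each was well above background on 12 of 12 arrays, so none was lost to the filter on dim probes. By role they comprise 6 membrane proteins, 6 cathepsins, 7 other proteins of the lysosomal lumen, 4 subunits of the proton pump, 2 transcription factors and 9 genes of autophagy.

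The study compared presenilin-deficient mice with controls in both regions, on 1-colour Agilent arrays of total RNA. The double knockout mice (DKO) carried ChatCre, a Cre recombinase under the promoter of the choline acetyltransferase gene that marks cholinergic neurons, and were PS2-/-. The control mice (Con) had no Cre and were PS2+/-, so they also lacked 1 working copy of that gene, and mice of both genotypes were homozygous for a floxed allele on which Cre acts. All mice were 2 months old and are labelled male. Each genotype had 3 mice, and each mouse gave 1 array per region, so 4 groups of 3 arrays were compared. PS2 is lost in every cell, whereas recombination is limited to cells that express the Cre. Cholinergic neurons are a small part of either tissue, and in such bulk samples fewer cells of a type and less RNA per cell cannot be told apart.

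Lysosomes digest proteins, lipids and sugars with acid hydrolases, and a vacuolar proton pump keeps their interior acidic. Autophagy delivers cytoplasm and organelles to them: the ULK1 and Beclin 1 complexes start a membrane, the ATG7 and ATG5 machinery attaches proteins of the Atg8 family to it, and receptors such as p62 bring cargo. TFEB and TFE3 are transcription factors that switch on many of these genes through E-box motifs. Presenilins are the catalytic subunits of gamma-secretase, and they have also been studied for a part in lysosomal acidification and calcium release. Neurons, which do not divide, depend on this system to clear waste.

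Levels below are log2 intensities from which the 75th percentile of the array was subtracted, so a level of 0 is that percentile and a step of 1 is a doubling. Levels of different genes come from different probes and were not set against each other. A gene was called where the adjusted p of limma was under 0.05 over all genes tested. Psen2, the gene knocked out throughout, lay between -1.86 and -1.25 on the 6 DKO arrays and between 0.25 and 0.50 on the 6 Con arrays, as the genotype labels have it. The label of sex did not hold for DKO mice 1 and 3. Their 4 arrays were the only ones with Xist, the RNA of the inactive X chromosome, above background (-2.32 to -1.53), and the Y-linked gene Uty was above background on the 8 other arrays only. Lamp2 and Tfe3, among the genes described here, lie on the X chromosome. Slide 1, scanned as one, carried all of basal forebrain and, from cortex, DKO mice 1 and 2, while slide 2 carried DKO mouse 3 and the 3 Con mice from cortex. In cortex, genotype and slide overlap except for DKO mouse 3, and in Con mice and DKO mouse 3 region and slide cannot be told apart. All 10 basal forebrain markers (Chat among them) were higher in basal forebrain in both genotypes, and of 10 cortex markers 9 were lower there in Con and 10 in DKO.

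Most of the 34 genes varied little between mice. The SD within a group, pooled over the 4 groups, had a median of 0.10 log2 units over the 34 genes and of 0.18 over 26959 genes, and it passed 0.2 for 3 of them: Psap (0.22), Laptm5 (0.22) and Grn (1.84). Psap encodes prosaposin, the precursor of the saposins that help hydrolases reach their lipids, and Laptm5 a lysosomal membrane protein of blood and immune cells. The plot of the levels by array shows where the larger deviations lie.

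**Figure D1:**
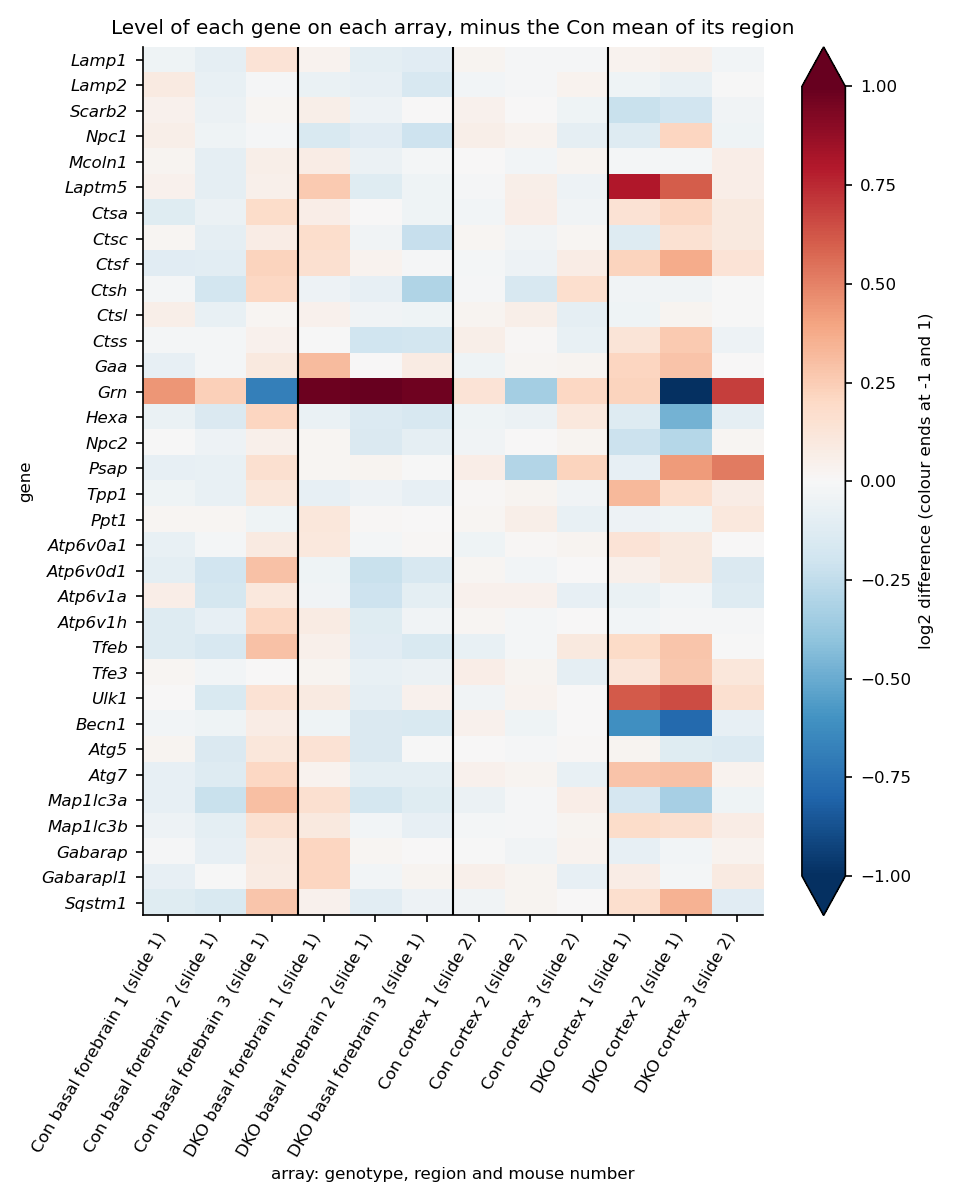
Each row is 1 of the 34 genes and each column 1 of the 12 arrays. Colour gives the level minus the mean of the 3 Con arrays of the same region, in log2 units, with the colour scale ending at -1 and 1. Grn stands out in several arrays, and in cortex the columns of DKO mice 1 and 2 (slide 1) are more strongly coloured than that of DKO mouse 3 (slide 2) for most genes, Psap being an exception.

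In basal forebrain no lysosome or autophagy gene was called between DKO and Con. The 34 log2 differences had a median of -0.03 and ran from -0.16 (Npc1) to 1.01 (Grn), with 22 below 0. Over all 26102 genes tested 0.0306% were called, 8 in all, and 48.9% of the differences were below 0. At an unadjusted p under 0.05 stood 2 of the 34 genes, Grn and Npc1, against 4.39% of all genes. The 95% interval of the difference lay within 1.5-fold in either direction for 33 of the 34 genes, Grn being the exception, and for 64.8% of all genes. Apart from Grn, the outermost bounds of these intervals were -0.46 (Atp6v0d1) and 0.39 (Gaa).

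Npc1, the membrane protein that exports cholesterol from lysosomes, had levels of 2.45, 2.49 and 2.40 in DKO basal forebrain and 2.67, 2.56 and 2.59 in Con. The 3 DKO values lie below the 3 Con values, with a difference of -0.16 (SE 0.06, limma adjusted p = 0.973). Becn1, which encodes Beclin 1 of the lipid kinase complex that starts autophagosomes, read 0.79, 0.69 and 0.68 (DKO) and 0.80, 0.79 and 0.90 (Con). Here too the groups did not overlap, by a narrow margin, and the difference was -0.11 (SE 0.07, adjusted p = 0.973). Groups that did not overlap were seen for 3 of the 34 genes (Npc1, Becn1 and Grn), against 9.95% of all genes, a share near the background.

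Ctss, the cathepsin typical of microglia and other phagocytes, had 4.88, 4.69 and 4.70 in DKO basal forebrain and 4.87, 4.86 and 4.93 in Con. DKO mouse 1 lay among the Con mice, and the difference was -0.13 (SE 0.08, adjusted p = 0.973). Lamp2, an abundant membrane glycoprotein needed for autophagosome fusion, read 1.99, 1.97 and 1.89 (DKO) and 2.14, 1.98 and 2.04 (Con), with a difference of -0.10 (SE 0.07, adjusted p = 0.973) and overlapping groups. The sign for Lamp2 turned where all its probes were averaged (0.17).

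Grn encodes progranulin, a secreted protein that is cut into granulins in lysosomes. The array holds 3 probes for it, and the result depends on which is read, so 2 of the 3 probe sequences are shown. They are the 60 bases printed on the array, given without capitals since no part of them is singled out. The first is the brightest and the one used, at chr11:102294591-102294650 (mm9, plus strand), and the other, the dimmest of the 3, lies at chr11:102296724-102296783.
Grn probe used: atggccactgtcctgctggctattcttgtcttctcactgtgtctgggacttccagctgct
Grn dimmest probe: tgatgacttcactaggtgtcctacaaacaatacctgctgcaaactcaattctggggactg

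With the brightest probe Grn levels were 7.89, 8.00 and 7.88 in DKO basal forebrain and 7.35, 7.15 and 6.22 in Con. The DKO mice were all above the Con mice, by 1.01 (SE 0.28, adjusted p = 0.973). In cortex the same probe gave 7.80, 1.79 and 8.26 in DKO and 7.71, 7.23 and 7.78 in Con, so 1 array, that of DKO mouse 2, stood far below the other 11, and the difference was -1.62. The 2 other probes did not follow it. Between DKO and Con they differed by 0.01 and -0.12 in basal forebrain and by 0.18 and 0.34 in cortex, and on the cortex array of DKO mouse 2 they read 4.04 and -0.12, within the range of the other arrays. The dimmest probe was lower on the 4 arrays of slide 2 (-0.79 to -0.49) than on the 8 of slide 1 (-0.26 to 0.21). Each of the 3 probes was well above background on all 12 arrays.

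**Figure D2:**
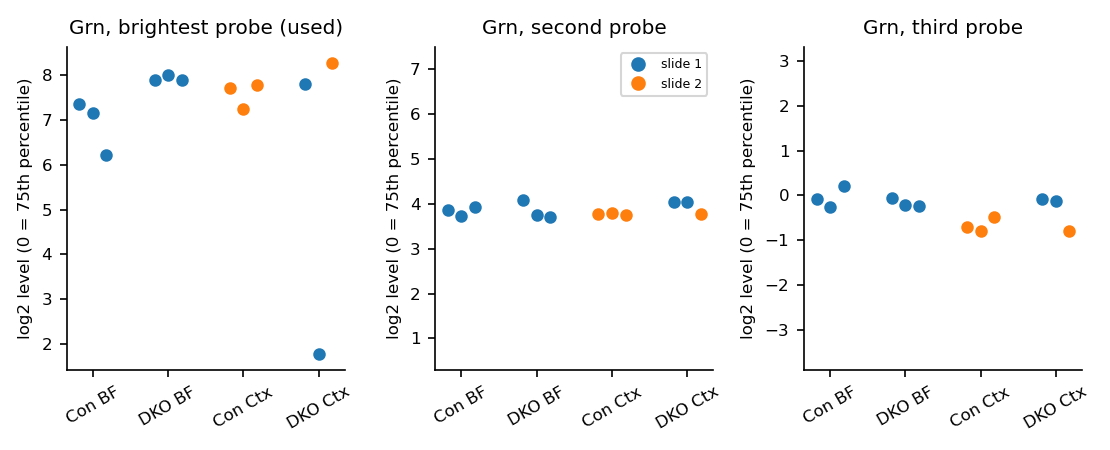
Levels of the 3 Grn probes on the 12 arrays, in log2 units with 0 at the 75th percentile of the array. The vertical axes span the same number of units, BF is basal forebrain, Ctx is cortex, and colour marks the slide. The brightest probe ranges from 1.79 to 8.26, and the other 2 probes show no array with such a low value.

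In cortex, too, no lysosome or autophagy gene was called between DKO and Con. The 34 differences had a median of 0.02, with 13 below 0, and over all 25798 genes 0.0116% were called, 3 in all, and 58.5% of the differences were below 0. Of the 34 genes, 7 had an unadjusted p under 0.05, against 18.9% of all genes, and in 9 the DKO and Con mice did not overlap, against 22.4% of all genes. Those 9 were Laptm5, Ctsa, Ctsf, Tpp1, Tfe3, Ulk1 and Map1lc3b with higher DKO values and Hexa and Becn1 with lower ones. The intervals were wider than in basal forebrain, and 29 of the 34 lay within 1.5-fold, the others being Becn1, Grn, Laptm5, Psap and Ulk1.

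Ulk1, the kinase that starts autophagy, had cortex levels of 4.47, 4.51 and 4.02 in DKO mice 1, 2 and 3 and of 3.83, 3.90 and 3.86 in Con. All 3 DKO mice were above the Con mice, by 0.47 on average (SE 0.12, adjusted p = 0.261). DKO mice 1 and 2, whose arrays were on slide 1, were 0.63 above the Con mean. DKO mouse 3, whose array was on the slide of the Con arrays, was 0.16 above it. On a second, dimmer Ulk1 probe DKO mice 1 and 2 were again above all others, with -2.97 and -2.83 in DKO mice 1 and 2, -3.77 in DKO mouse 3 and -4.15, -4.18 and -3.76 in Con, so that DKO mouse 3 lay within the range of the Con mice.

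Becn1 went the other way. Its cortex levels were 1.13, 0.97 and 1.66 in DKO mice 1, 2 and 3 and 1.79, 1.70 and 1.75 in Con, a difference of -0.49 (SE 0.16, adjusted p = 0.261). DKO mice 1 and 2 differed from the Con mean by -0.70 and DKO mouse 3 by -0.08. The array holds 1 Becn1 probe, on the minus strand of chromosome 11 between 101151771 and 101152713 (mm9), a span longer than the probe, since the sequence is not contiguous in the genome. It is shown with the dimmer Ulk1 probe, likewise not contiguous (chromosome 5, 111216232 to 111216623, minus strand), because these 2 genes of autophagy initiation had the smallest p-values in cortex.
Becn1 probe: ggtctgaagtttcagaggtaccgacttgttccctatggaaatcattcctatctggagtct
Ulk1 dimmer probe: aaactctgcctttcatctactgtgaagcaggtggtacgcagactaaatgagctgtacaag

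Laptm5 read -0.16, -0.35 and -0.89 in DKO cortex and -0.97, -0.90 and -1.01 in Con, a difference of 0.49 (SE 0.18, adjusted p = 0.261). DKO mouse 3 exceeded the highest Con mouse by little, whereas DKO mice 1 and 2 were 0.70 above the Con mean. Ctsf, a cysteine cathepsin, had 1.59, 1.74 and 1.51 in DKO cortex and 1.35, 1.32 and 1.45 in Con (difference 0.24, SE 0.08, adjusted p = 0.261). Ctsa, a serine carboxypeptidase that also protects beta-galactosidase and neuraminidase, had 4.79, 4.86 and 4.75 in DKO and 4.62, 4.72 and 4.61 in Con (difference 0.15, SE 0.06, adjusted p = 0.261). For these 2 cathepsins DKO mouse 3 was again the nearest of the 3 to the Con mice.

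**Figure D3:**
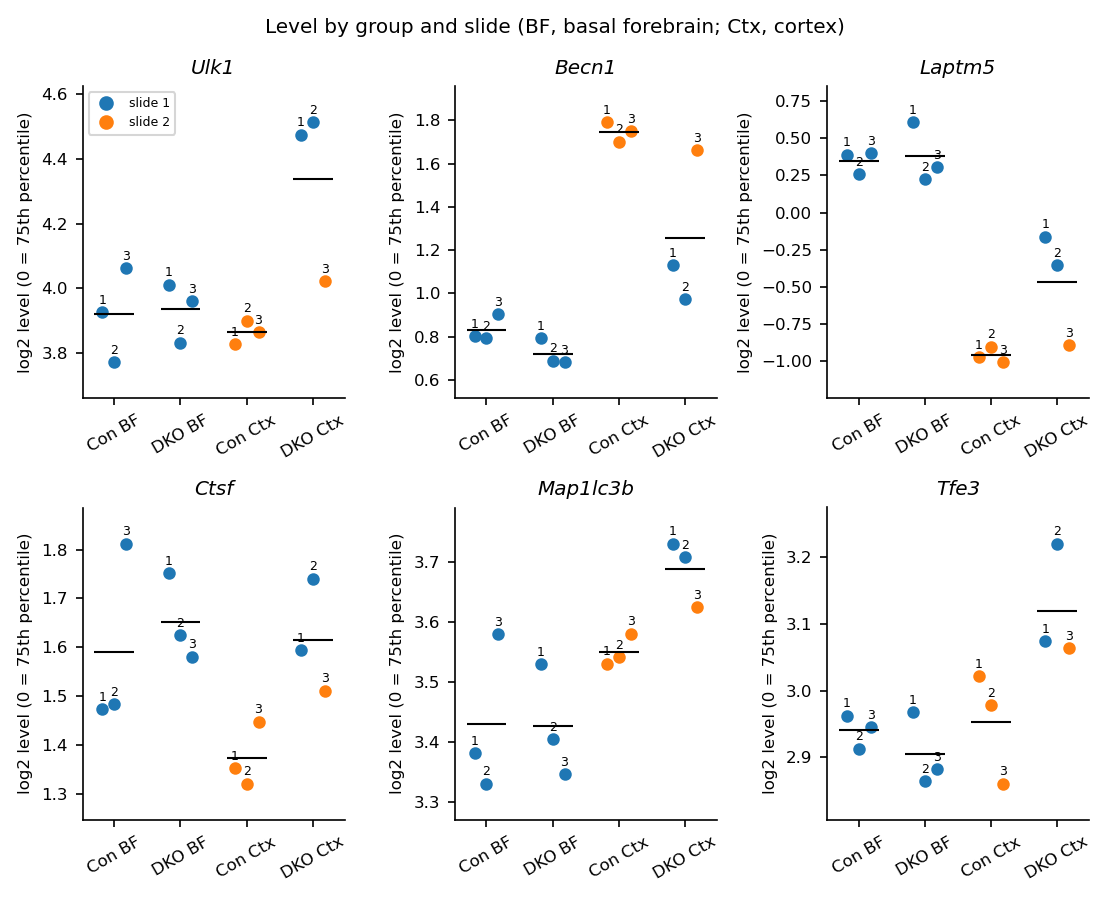
Levels of 6 genes with non-overlapping genotypes in cortex, in log2 units with 0 at the 75th percentile of the array. Points are arrays, numbered by mouse, horizontal lines are group means and colour marks the slide. In the DKO cortex group mouse 3, on slide 2, is the nearest to the Con arrays of that slide for each of the 6 genes.

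A second measure was counted over all genes. In cortex the level of DKO mouse 3 was nearer to the Con mean than to the mean of DKO mice 1 and 2 for 25 of the 34 genes. Ctsa and Tfe3, both named above, were not among these 25. Over all genes the count was 19337 of the 25798 tested, so this is no trait of the 34. The median absolute distance from the Con mean was 0.17 for DKO mice 1 and 2 and 0.07 for DKO mouse 3 over the 34 genes. When DKO mouse 3 was left out, genotype and slide coincided in cortex, and 16 of the 34 genes were called, 12 higher and 4 lower in DKO, against 37.4% of all genes. Leaving out DKO mice 1 and 3, whose label of sex did not hold, left only DKO mouse 2, on slide 1, against the Con mice on slide 2. Genotype and slide coincided there as well, so that fit cannot tell them apart. Its differences were 0.65 for Ulk1 and -0.77 for Becn1. The 5 genes with cortex values above were called in these 2 alternatives of the 17 run and in no other, with adjusted p-values over the alternatives of 0.000576 to 0.637 for Ulk1, 0.0011 to 0.937 for Becn1, 0.00197 to 0.973 for Laptm5, 0.0175 to 0.875 for Ctsf and 0.0278 to 0.868 for Ctsa. With the slide as a block 0 were called, but in cortex that fit sets DKO mouse 3 alone against the Con mice. Between the regions its slide term comes from DKO cortex alone, from mouse 3 against mice 1 and 2. In basal forebrain, where all arrays shared a slide, 0 were called in all 16 alternatives run. Whether slide or genotype set the cortex values cannot be told apart beyond DKO mouse 3.

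**Figure D4:**
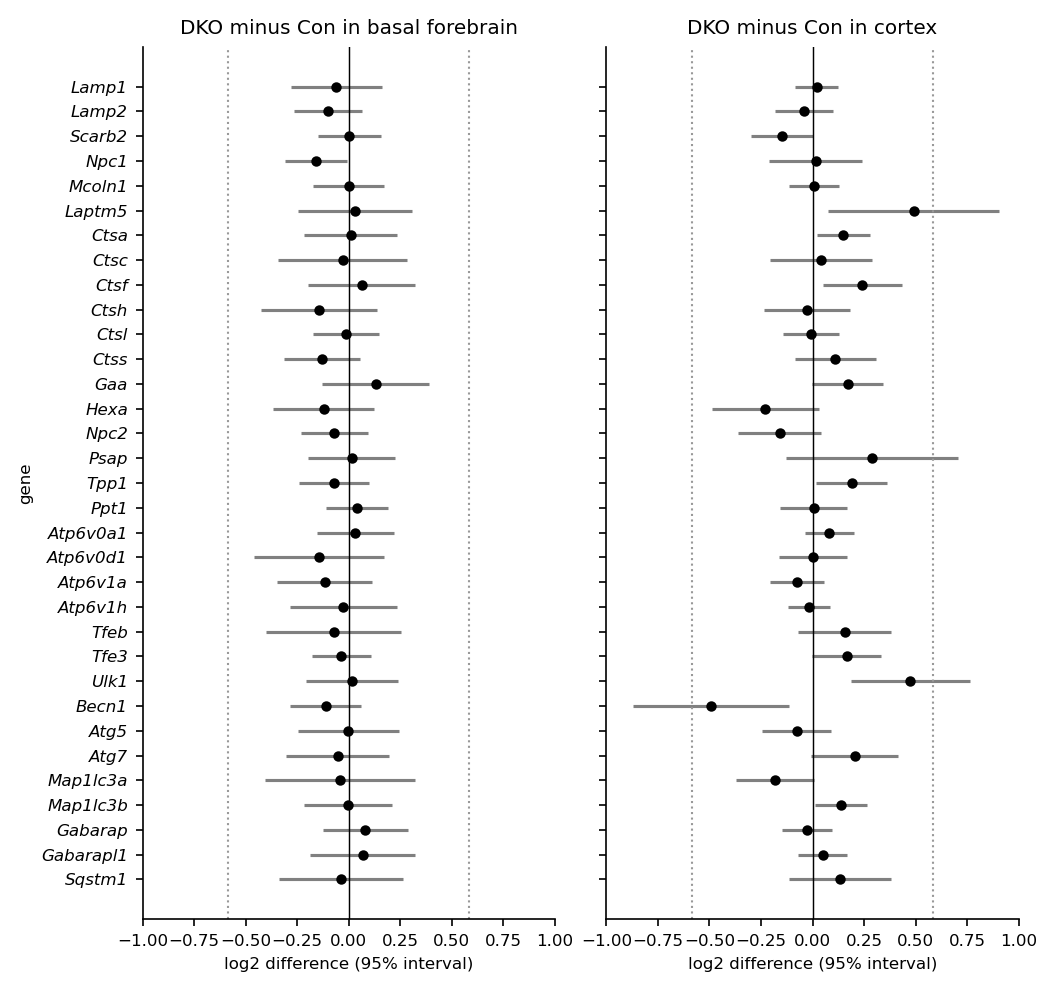
Log2 difference DKO minus Con with its 95% interval from limma for 33 of the 34 genes in basal forebrain (left) and cortex (right). Dotted lines mark 1.5-fold in either direction, and Grn, whose interval in cortex runs from -5.13 to 1.88, is left out. In basal forebrain each of the 33 intervals lies inside the dotted lines, and in cortex those of Becn1, Laptm5, Psap and Ulk1 cross one.

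Averaged over both regions of each mouse, no lysosome or autophagy gene was called, while 0.156% of all genes were. The smallest p-values belonged to Becn1 (-0.30, SE 0.09, limma adjusted p = 0.412) and Ulk1 (0.24, SE 0.07, adjusted p = 0.412), and 2 of the 34 genes had an unadjusted p under 0.05, against 10.7% of all genes. Neither did any genotype difference differ between the regions past the threshold, for these genes or for any gene (0 of 26959, 0%), and 2 of the 34 (Ulk1 and Tpp1) had an unadjusted p under 0.05, against 8.36% of all genes. Ulk1 came nearest (-0.46, SE 0.17, adjusted p = 0.562), and it was called without DKO mouse 3 (-0.63, adjusted p = 0.0283, within 0.0283 to 1 over the alternatives), as was Becn1 (0.60, adjusted p = 0.0215). Without DKO mouse 3, 5.76% of all genes were called in this comparison. Without DKO mice 1 and 3 only Grn was (6.87, adjusted p = 0.0344), on the low array described above, where 0.0542% of all genes were.

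Neither transcription factor was called between DKO and Con. Tfeb read 0.64, 0.47 and 0.43 in DKO basal forebrain, 0.46, 0.43 and 0.88 in Con basal forebrain, 0.80, 0.88 and 0.60 in DKO cortex and 0.53, 0.58 and 0.70 in Con cortex, with overlap between the genotypes in both regions. Tfe3 read 2.97, 2.86 and 2.88, then 2.96, 2.91 and 2.95, then 3.07, 3.22 and 3.06, then 3.02, 2.98 and 2.86 in the same order of groups, and its DKO cortex values were just above those of Con. Without DKO mouse 3 Tfeb was among the cortex calls (0.23, adjusted p = 0.0463). Their differences from Con were -0.07 and -0.04 in basal forebrain and 0.16 and 0.17 in cortex.

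In the Atg8 family, the ubiquitin-like proteins that coat the autophagosome, Map1lc3a read 3.68, 3.34 and 3.39 (DKO) and 3.43, 3.29 and 3.82 (Con) in basal forebrain, and 3.85, 3.69 and 3.98 (DKO) and 3.96, 4.01 and 4.09 (Con) in cortex, with the genotypes overlapping in both. Map1lc3b, the form most used as an autophagy marker, had 3.53, 3.41 and 3.35 against 3.38, 3.33 and 3.58 in basal forebrain and 3.73, 3.71 and 3.63 against 3.53, 3.54 and 3.58 in cortex, DKO first. Its genotypes overlapped in basal forebrain and did not in cortex. Gabarap had 4.78, 4.59 and 4.58 against 4.56, 4.49 and 4.66 in basal forebrain and 4.56, 4.61 and 4.68 against 4.64, 4.61 and 4.68 in cortex. Gabarapl1 had 7.82, 7.57 and 7.63 against 7.53, 7.60 and 7.69, and 7.83, 7.74 and 7.85 against 7.81, 7.79 and 7.68. Over the 4 genes the genotype differences ran from -0.04 to 0.08 in basal forebrain and from -0.18 to 0.14 in cortex. The cargo receptor gene Sqstm1, whose product is p62, differed by -0.04 in basal forebrain and 0.13 in cortex, and the conjugation genes Atg5 and Atg7 by 0.00 and -0.05, and by -0.08 and 0.20.

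Between the regions, by contrast, several of the genes differed in both genotypes. In Con mice 11 of 34 passed the test, 5 higher and 6 lower in basal forebrain than in cortex, and in DKO mice 16 did, 5 higher and 11 lower. Over all genes 49% were called in Con, 18.5% higher and 30.5% lower, and 39.9% in DKO, 19.3% higher and 20.6% lower, so the share of the 34 genes was below the background in Con (32.4%) and above it in DKO (47.1%). The order in DKO depends on the mice and on the probes read. Without DKO mouse 2 the share was 17.6% against 24.4% of all genes. With all probes of a gene averaged and all mice kept it was 38.2% against 40.1%. The median difference of the 34 genes was -0.01 in Con and -0.09 in DKO, and that of all genes -0.09 and -0.04. Called in both genotypes were 4 genes that were higher in basal forebrain (of 5 in each genotype) and 6 that were lower (of 6 in Con and 11 in DKO), and 0 were called in opposite directions. The split depends on the scaling. With quantile normalization 9 rose and 5 fell in Con and 10 rose and 6 fell in DKO, and with the array median 3 rose and 6 fell, and 1 rose and 19 fell. Over all genes quantile normalization gave 5880 risen and 7722 fallen in Con and 5143 and 5833 in DKO, and the array median 3195 and 8490, and 2974 and 10123. The array median moved the median of all genes to -0.21 in Con and -0.32 in DKO. Each of the 10 genes called in both kept its sign under the 4 scalings run, but averaging all probes of a gene turned 3 of them in DKO (Mcoln1, Atp6v0a1 and Atp6v1h) and Mcoln1 in Con, as given with each below.

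The 4 genes that were higher in basal forebrain were the immune-cell membrane gene Laptm5 and 3 hydrolases. Laptm5 read 0.39, 0.26 and 0.40 (Con) and 0.61, 0.22 and 0.31 (DKO) in basal forebrain, above its cortex levels given above in every mouse. It rose by 1.31 in Con (SE 0.16, 2.48-fold, limma adjusted p = 6.69e-05) and by 0.85 in DKO (SE 0.16, 1.80-fold, adjusted p = 0.00157). Gaa encodes the acid alpha-glucosidase that breaks down glycogen and is lost in Pompe disease. In basal forebrain its levels were 6.38, 6.44 and 6.56 (Con) and 6.77, 6.46 and 6.54 (DKO), and in cortex 5.76, 5.82 and 5.83 (Con) and 6.02, 6.09 and 5.81 (DKO). The regions did not overlap, and Gaa rose by 0.65 in Con (SE 0.09, adjusted p = 0.000217) and by 0.62 in DKO (SE 0.09, adjusted p = 0.000357). With slide as a block the Con difference was 0.41 (adjusted p = 0.119), and over the alternatives its adjusted p ran from 6.44e-06 to 0.119. The DKO call of Gaa ended with the array median (0.33, adjusted p = 0.093, the highest over its alternatives, the lowest being 1.62e-05).

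Ctsh, a cathepsin with aminopeptidase activity, read 2.25, 2.08 and 2.48 (Con) and 2.22, 2.19 and 1.97 (DKO) in basal forebrain, and 1.75, 1.60 and 1.92 (Con) and 1.72, 1.72 and 1.75 (DKO) in cortex. The regions did not overlap in either genotype, and it rose by 0.51 (SE 0.11, adjusted p = 0.00282) and by 0.40 (SE 0.11, adjusted p = 0.0134). Ctss, with the basal forebrain levels above and cortex levels of 4.42, 4.37 and 4.28 in Con and 4.48, 4.61 and 4.30 in DKO, rose by 0.53 (SE 0.08, adjusted p = 0.000395) and by 0.29 (SE 0.08, adjusted p = 0.0156). With slide as a block the Con calls of both ended, at 0.54 for Ctsh (adjusted p = 0.123, within 0.000338 to 0.123 over the alternatives) and 0.29 for Ctss (adjusted p = 0.18, within 1.63e-05 to 0.18). With the array median the DKO difference of Ctss was 0.01 (adjusted p = 0.97) and that of Ctsh 0.11 (adjusted p = 0.576). The DKO calls of Ctss ended without DKO mouse 1 (adjusted p = 0.085) or DKO mouse 3 (0.0672), and those of Ctsh without DKO mouse 1 (0.0867) or DKO mouse 2 (0.0958). Over the alternatives the adjusted p in DKO ran from 0.000569 to 0.97 for Ctss and from 0.00246 to 0.576 for Ctsh.

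Laptm5 and Ctss are typical of microglia. Of 18 microglia markers, 1 was higher and 2 were lower in basal forebrain in Con, with a median difference of 0.00, and 2 were higher and 1 was lower in DKO, with a median of 0.11. The summed log2 level of a list is the log2 of its summed linear levels, so its brightest probes weigh most. For the microglia markers it ran from 7.05 to 7.38 in Con basal forebrain and from 7.26 to 7.27 in Con cortex. In DKO it ran from 7.22 to 7.34 and from 6.96 to 7.34. The regions thus overlapped, and the part of these markers in the 2 genes' differences was not tested. In cortex the DKO mean was below the Con mean for 16 of the 18 microglia markers (median difference -0.20), against 58.5% of all genes. In DKO cortex their summed log2 level was 7.09 and 6.96 in mice 1 and 2, on slide 1, and 7.34 in mouse 3, on slide 2. The part of these markers in the cortex values of Laptm5 was not tested. Leukocyte markers were called higher in DKO for 2 of 18 genes in basal forebrain, 1 of 17 in cortex and 7 of 18 over both regions, each well above background on at least 1 array. Their summed log2 level was 3.16 to 4.16 in DKO cortex and 1.89 to 2.13 in Con cortex. In basal forebrain it was 2.98 to 3.58 in DKO and 1.73 to 2.12 in Con. The brightest of them in DKO cortex was S100a9, with 2.56, 3.33 and 1.79 against -0.29, -1.60 and -1.36 in Con. Not all of the list was higher: Cd3e read -1.15, -0.96 and -0.38 in DKO cortex and -0.56, -0.53 and -0.37 in Con. Of 5 erythroid markers tested, 0 were called in either region alone and 5 were called higher in DKO over both regions (median 2.10), with a summed log2 level of 8.11 to 8.94 in DKO cortex and 7.04 to 7.52 in Con cortex. In basal forebrain the summed log2 level of the erythroid markers was 8.08 to 9.485 in DKO and 7.02 to 7.21 in Con. The Laptm5 difference between DKO and Con was 0.03 there. The part of the leukocyte or erythroid markers in the values of Laptm5 was not tested.

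The 6 genes that were lower in basal forebrain were 3 of the 4 proton pump subunits, Becn1, Map1lc3a and the calcium channel gene Mcoln1. Atp6v1a, the catalytic subunit that hydrolyses ATP, read 5.02, 4.77 and 5.05 (Con) and 4.91, 4.74 and 4.85 (DKO) in basal forebrain, and 5.58, 5.57 and 5.45 (Con) and 5.46, 5.51 and 5.40 (DKO) in cortex. It fell by 0.58 in Con (SE 0.08, limma adjusted p = 0.000178) and by 0.62 in DKO (SE 0.08, 1.54-fold lower, adjusted p = 0.000109). The regions did not overlap, and among the 4 subunits it had the largest difference in both genotypes. Atp6v1h, a regulatory subunit of the same cytosolic domain, read 4.51, 4.56 and 4.85 (Con) and 4.73, 4.52 and 4.60 (DKO) in basal forebrain, and its 6 cortex levels lay between 4.99 and 5.03. It fell by 0.37 (SE 0.09, adjusted p = 0.00419) and by 0.38 (SE 0.09, adjusted p = 0.00425). Its calls ended without Con mouse 1 (adjusted p = 0.0623) and, in DKO, without DKO mouse 2 (0.0527), within 0.00161 to 0.953 and 0.00123 to 0.314 over the alternatives. The mean over all its probes was -0.01 in Con (no longer called) and 0.16 in DKO, a turned sign. Its second brightest probe fell as well, by 0.60 in Con and 0.48 in DKO. Its dimmest probe, at a mean level of -4.21, rose by 0.94 and 1.35.

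Atp6v0a1, of the membrane domain through which protons pass, fell by 0.26 in Con (adjusted p = 0.00718) and by 0.31 in DKO (adjusted p = 0.00318). The Con call ended under 6 of 17 alternatives, among them quantile normalization (-0.12, adjusted p = 0.0569) and leaving out Con mouse 1 (0.0612) or Con mouse 2 (0.0662), within 0.00712 to 0.132. The mean over its 4 probes was -0.27 in Con (adjusted p = 0.132) and 0.11 in DKO (adjusted p = 0.563, within 0.00293 to 0.563), a turned sign, as 1 of the dimmer probes differed by 1.23 and 1.51. Atp6v0d1, which joins that domain to the stalk, had -0.24 in Con (adjusted p = 0.0974) and fell by 0.38 in DKO (adjusted p = 0.018), a call that ended without DKO mouse 2 (0.158, within 0.00403 to 0.158). Read by the brightest probe, all 4 pump subunits had lower means in basal forebrain in both genotypes; with probes averaged, Atp6v0a1 and Atp6v1h did not in DKO. Among 14 other pump subunits tested, 7 fell and 1 rose in Con, and 9 fell and 1 rose in DKO. Over all genes 30.5% fell and 18.5% rose in Con, and 20.6% fell and 19.3% rose in DKO. These shares are the background for the marker counts below as well. Under quantile normalization the pump counts were 5 fallen and 4 risen in Con and 8 and 2 in DKO. With the array median they were 4 and 0, and 11 and 0. The counts of all genes under both scalings are given above. Neuron markers moved the same way: of 12, 6 fell and 1 rose in Con (median -0.31) and 5 fell and 1 rose in DKO (median -0.14). Their summed log2 level was 8.99 to 9.20 in Con basal forebrain and 9.39 to 9.41 in Con cortex, and 9.03 to 9.26 and 9.34 to 9.43 in DKO. Choroid plexus markers were lower as well: of 10, 6 fell and 2 rose in Con (median -1.59) and 8 fell and 1 rose in DKO (median -2.84), with a summed log2 level of 4.83 to 5.07 in Con basal forebrain against 6.62 to 7.37 in Con cortex, and of 4.77 to 4.88 against 7.20 to 7.55 in DKO. The part of neurons or choroid plexus in the dissected tissue in the pump values, and in the other region differences, was not tested.

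Becn1 fell by 0.91 in Con (SE 0.14, 1.89-fold lower, adjusted p = 0.000281) and by 0.53 in DKO (SE 0.14, 1.45-fold lower, adjusted p = 0.00896). Its 6 basal forebrain levels given above lie between 0.68 and 0.90, below every cortex level. Map1lc3a fell by 0.51 in Con (SE 0.13, adjusted p = 0.00773) and by 0.37 in DKO (SE 0.13, adjusted p = 0.0399). The Map1lc3a call in Con ended without Con mouse 1 (adjusted p = 0.058) or Con mouse 2 (0.0673), and that in DKO without Con mouse 1 (0.0678), DKO mouse 2 (0.104) or DKO mouse 3 (0.258). Over the alternatives its adjusted p ran from 0.00484 to 0.492 in Con and from 0.0109 to 0.313 in DKO, where it was called in 8 of 17. Mcoln1, the TRPML1 channel that lets calcium out of lysosomes, fell by 0.24 in Con (SE 0.06, adjusted p = 0.0085) and by 0.25 in DKO (SE 0.06, adjusted p = 0.00826). A second and dimmer Mcoln1 probe differed by 0.90 and 0.68, in the opposite direction, so the 2 probes disagree, and their mean was 0.33 in Con (adjusted p = 0.078) and 0.22 in DKO (adjusted p = 0.254). Its calls also ended in Con without Con mouse 1 (0.0577) or Con mouse 2 (0.0731) and with slide as a block (-0.15, adjusted p = 0.417), and in DKO with quantile normalization (-0.11, adjusted p = 0.101) and without DKO mouse 2 (0.0621) or DKO mouse 3 (0.0641), within 0.00807 to 0.417 and 0.00446 to 0.254 over the alternatives.

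Since slide and region coincide in Con, the DKO mice 1 and 2, with both regions on slide 1, give the comparison within a slide. All 10 genes called in both genotypes had their direction in both of these mice, which are 2 of the 3 DKO mice the call was made on, so the sign was largely set by the choice of genes and the sizes are given as a description. Laptm5 differed by 0.77 and 0.58 in them, and by 1.16 to 1.40 in the 4 mice with the regions on separate slides when DKO mouse 3 (1.20) is counted with the Con mice. Becn1 differed by -0.34 and -0.28 within the slide and by -0.85, -0.91 and -0.99 in Con and -0.98 in DKO mouse 3. Atp6v1a differed by -0.55 and -0.77 within the slide and by -0.39 to -0.80 in Con, so for this gene the 2 kinds of pair overlapped. With the slide as a block in the fit, Atp6v1a (-0.67, adjusted p = 0.0158), Laptm5 (0.68, adjusted p = 0.0443) and Npc2 (0.46, adjusted p = 0.019) were called in Con, 3 in all against 10.8% of all genes, and 14 genes in DKO against 37.8%. The slide term of that fit came from DKO cortex alone, for the Con differences as well. In that fit Becn1 had -0.30 in Con (adjusted p = 0.143, the highest over its alternatives, the lowest being 1.11e-05). It fell by 0.33 in DKO (adjusted p = 0.0059).

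**Figure D5:**
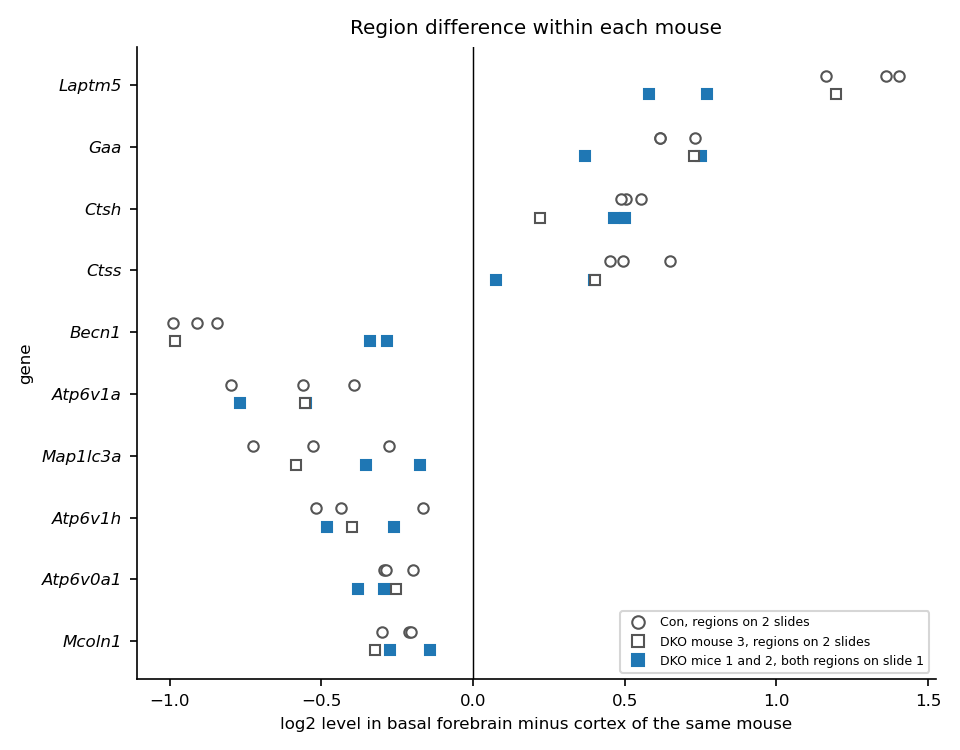
Log2 level in basal forebrain minus that in cortex of the same mouse, for the 10 genes called in both genotypes. Circles are Con mice, squares DKO mice, and filled squares the 2 DKO mice with both regions on 1 slide. All points of a gene lie on 1 side of 0, and for Laptm5 and Becn1 the filled squares lie nearer to 0 than the open symbols.

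The remaining region calls were made in 1 genotype. Tpp1, a tripeptidyl peptidase of the lumen, rose by 0.33 in Con (adjusted p = 0.00374), and with slide as a block it had 0.16 (adjusted p = 0.459, within 2e-04 to 0.459 over the alternatives). In DKO, Npc2, which hands cholesterol to NPC1, rose by 0.28 (adjusted p = 0.0168), with the array median its difference was -0.0084, and the call ended without DKO mouse 1 (adjusted p = 0.131) or DKO mouse 2 (0.0754), within 0.00157 to 0.963. A further 5 genes fell by 0.21 (Tfe3, adjusted p = 0.0232), 0.26 (Map1lc3b, 0.0164), 0.38 (Atp6v0d1, given above), 0.40 (Atg7, 0.00854) and 0.40 (Ulk1, 0.0182). Each of these 5 calls ended without DKO mouse 2, at adjusted p-values of 0.209 (Tfe3), 0.109 (Map1lc3b), 0.158 (Atp6v0d1), 0.0895 (Atg7) and 0.189 (Ulk1), and those of Tfe3 (0.0596) and Map1lc3b (0.0611) also without DKO mouse 3 and that of Ulk1 without DKO mouse 1 (0.073). Over the alternatives the adjusted p ran from 0.00529 to 0.368 for Tfe3, 0.0071 to 0.537 for Map1lc3b, 0.00356 to 0.0895 for Atg7 and 0.000632 to 0.189 for Ulk1. With probes averaged Map1lc3b had 0.12 in DKO, a turned sign. None of these was shown to differ between the genotypes, since the test of that difference called no gene. The counts moved with those of all genes. Without DKO mouse 2 the DKO count was 6, with the background share given above. Without Con mouse 1 the Con count was 7 (20.6%) against 25.6% of all genes. Lamp1, Lamp2, Scarb2, Npc1, Ctsa, Ctsc, Ctsf, Ctsl, Grn, Hexa, Psap, Ppt1, Tfeb, Atg5, Gabarap, Gabarapl1 and Sqstm1 were called in neither genotype.

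The 138 other genes of the lysosome, the pump, autophagy and their regulation, of which 136 were tested, gave a similar picture. Between DKO and Con 0 were called in basal forebrain, in cortex or over both regions. The smallest p-values in basal forebrain were those of Acp5, tartrate-resistant acid phosphatase (1.16, limma adjusted p = 0.973), and Wdfy3, a scaffold of selective autophagy (0.27, adjusted p = 0.973). In cortex they were those of Rragb, a Rag GTPase that brings mTORC1 to lysosomes (-0.53, adjusted p = 0.261), and Atg13, a partner of ULK1 (0.23, adjusted p = 0.261). Acp5 read -1.66, -0.52 and -1.94 (DKO) and -2.36, -2.63 and -2.61 (Con) in basal forebrain, and -1.66, -0.92 and -0.53 (DKO) and -2.23, -2.05 and -2.16 (Con) in cortex. The DKO mice were above the Con mice in both regions, DKO mouse 3 included, by 1.14 over both regions (adjusted p = 0.153).

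Between the regions 19 of the 136 were higher and 39 lower in basal forebrain in Con, and 8 higher and 41 lower in DKO. Over all genes 18.5% were called higher and 30.5% lower in Con, and 19.3% higher and 20.6% lower in DKO. Among genes that passed, the sharpest falls were those of Lamp5, a LAMP family protein of neurons (-1.51 in Con and -1.61 in DKO), and Prkaa2, a catalytic subunit of AMP-activated kinase (-0.88 and -0.93), followed by Arsb in Con (-0.67) and Atp6v1g2, the neuronal form of a pump subunit, in DKO (-0.91). Among genes that passed the test the highest rise was that of Atg9b in both (0.74 and 1.22), followed in Con by Zkscan3 (0.61) and Galns (0.51) and in DKO by Dnase2a (0.85) and Rheb (0.66).

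Promoters were read because Atp6v1a and Mcoln1 fell together between the regions and TFEB and TFE3 bind E-boxes. For Mcoln1 the fall holds for the brighter probe only, as given above. RefSeq promoters (GRCm38.p6, 250 bases before to 50 after the start) matched 29 of the 34 genes, with 34 promoters, and Becn1, Ctsh, Atp6v1h, Map1lc3a and Npc1 were not matched. Searched were CACGTG, the longer TCACGTGA that holds it, and the 10-base CLEAR motif, which extends the latter by 1 base on either side. Each is its own reverse complement, so one search covers both strands. CACGTG was found in 10 of 34 promoters (29.4%) and in 7.15% of 32851 promoters of this length. TCACGTGA was found in 4 of 34 (11.8%), those of Atp6v0d1, Atp6v1a, Ctsa and Mcoln1, and in 0.974% of all. The CLEAR motif was found in 0 of 34 and in 0.326% of all. Stretches of 60 bases are shown for the 2 genes with TCACGTGA that were called between regions in both genotypes and for Lamp1, whose promoter held 4 copies of CACGTG and whose level was called in neither genotype, with TCACGTGA in capitals in the first 2 and CACGTG in the last. The Mcoln1 stretch holds a further CACGTG near its start, left in lower case. They lie at chr16:44139358-44139417 (minus strand), chr8:3500447-3500506 (plus strand) and chr8:13159095-13159154 (plus strand).
Atp6v1a promoter: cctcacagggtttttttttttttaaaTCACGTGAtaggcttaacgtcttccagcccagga
Mcoln1 promoter: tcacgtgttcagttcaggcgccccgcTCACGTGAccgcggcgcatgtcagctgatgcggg
Lamp1 promoter: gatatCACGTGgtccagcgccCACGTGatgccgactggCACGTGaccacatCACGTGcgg

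Genes with a match went both ways between the regions. Atp6v1a and, by its brighter probe only, Mcoln1, with TCACGTGA, fell in both genotypes and Atp6v0d1 in DKO, whereas Ctsa was called in neither. Gaa, with CACGTG, rose in both, and Atg7 fell in DKO. Atg5, Ctsf, Ctsl and Lamp1, also with CACGTG, were called in neither. Laptm5 and Ctss, which rose in both, and Atp6v0a1, which fell in both, had no match in the window read.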

How the data were processed

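Total RNA was labelled with Cy3 and hybridised to 1-colour Agilent arrays, 1 per sample. Per the file headers, the deposited files hold the processed intensity per spot from Agilent Feature Extraction 10.7.1.1, background-subtracted, detrended and not scaled between arrays, with positions in mm9. A deposited table of log2 values, identical in sorted values on all 12 arrays, served as an alternative, and its 12 flag columns were not used here. Of the raw values that the authors deposited in that table, 99.998% lay within 0.01 log2 of the scanner's.

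Spots of a probe were averaged on the log2 scale, 37 probes with flagged spots were left out of 56605, and the 75th percentile of each array was subtracted. On an array 68.9% to 75.0% of probes were well above background and 0 spots were saturated; arrays of a group correlated at 0.985 to 0.995. The number of arrays limits the precision, not a read depth. The brightest probe stood for a gene (78 probes for the 34 genes), and a gene entered a comparison if the 3 arrays of 1 compared group or more all had that probe well above background. Genotype was fitted within each region on 6 arrays and on the 6 mouse means, and region and interaction on all 12 arrays in 4 groups, with limma 3.58.1 (lmFit, eBayes with trend) in R 4.3.3 and Benjamini-Hochberg adjustment over all genes. The fits, except that of the regions in DKO, were tested on simulated data with independent noise. Those data held no slide, sex or mouse effect, so the test cannot speak to the overlap of slide with genotype or region.

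The genes and lists were chosen with earlier results of these data known. Genes named with all values are those with the 5 smallest p-values per region between genotypes, the 4 largest rises and falls called in both genotypes between regions, Tfeb, Tfe3 and the Atg8 family; of the other pathway genes, the 2 smallest p-values between genotypes and the 3 largest rises and falls between regions are named. Arrays of a region were taken as separate mice by their titles. The 2 arrays of a mouse carry 1 number, and their deviations from the group means correlated at 0.20 to 0.32 in Con and at 0.01, 0.19 and -0.05 in DKO; across genotypes the numbers are only shared. One targeted allele is not reported here by name.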

Additional observations from a re-analysis of the deposited data

How the results depend on the processing

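The counts between DKO and Con in basal forebrain and over both regions were 0 in all alternatives run. In cortex the count was 0 except for 16 without DKO replicate 3 (leaving out 1 mouse gave 0 to 16) and 14 without DKO mice 1 and 3, and the comparison of genotype differences was 0 except for 2 without DKO replicate 3 (0 to 2) and 1 without DKO mice 1 and 3. Between regions the 11 in Con became 3 with slide as a block and 7 to 12 on leaving out 1 mouse, 7 being without Con replicate 1. The 16 in DKO became 6 to 16, 6 being without DKO replicate 2, and 4 without DKO mice 1 and 3. In these fits a group left with 1 array was assumed to vary like the others. Leaving out DKO mouse 3, alone or with DKO mouse 1, makes genotype and slide coincide in cortex. Where all probes of a gene were averaged, signs turned for Lamp2 between genotypes in basal forebrain (0.17) and, between regions, for Mcoln1 in Con (0.33) and DKO (0.22) and for Atp6v1h (0.16), Atp6v0a1 (0.11) and Map1lc3b (0.12) in DKO; with the array median Npc2 turned in DKO (-0.0084). The cause was not tested. Of the other values of named genes, 584 kept direction and side of the threshold, 73 were no longer past it and 11 came past it. The replicate block, which for the regions pairs the 2 arrays of a mouse, gave 11 in Con and 16 in DKO, the same genes, and 0 in the other comparisons, so it changed no call count. The slide block could not be fitted in basal forebrain, where all arrays share a slide. In cortex it rests on DKO mouse 3 alone, and between regions its slide term comes from DKO cortex alone. No interval covers the error of a probe that reads another sequence, and 10 of the 34 genes have 1 probe.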
